A study of Mus musculus with 4 samples.

Results

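The 9 genes described here are Sema3a, Sema3c and Sema3f, which encode secreted guidance ligands, Nrp1 and Nrp2, which encode their neuropilin co-receptors, and Plxna1, Plxna2, Plxna3 and Plxna4, which encode the class A plexins that carry the signal into the cell. They were taken by gene symbol from the 32285 genes in the count matrices, and all 9 were found. Levels are given across neurons and progenitors of the medial ganglionic eminence (MGE), the ventral forebrain zone that makes cortical interneurons and several kinds of basal forebrain neuron.

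Single cells had been profiled by 10x Genomics droplet sequencing from MGE dissected at e14.5 (embryonic day) from C57/BL6 ICR mix mice. The parents were heterozygous for St18, a zinc finger transcription factor, and 2 libraries were labelled St18(-/-), a null in the whole animal and called null here, and 2 WT. Embryos were genotyped during dissection and pooled by genotype, so a library is a pool and not 1 animal, and the labels do not tell the pools apart further. Cells with at least 3000 UMIs (unique molecular identifiers, counted transcripts) and at most 10% mitochondrial UMIs were kept. After removal of likely doublets, 18020 neurons and progenitors remained, with 6206 and 3705 in replicates 1 and 2 labelled null and 4292 and 3817 in WT replicates 1 and 2.

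Most class 3 semaphorins, the 3 ligands here among them, do not bind a plexin tightly on their own. They bind a neuropilin, which has almost no signalling part inside the cell, and the neuropilin holds them to a class A plexin, whose inner part acts on small GTPases and the cytoskeleton. Sema3a is the classical ligand of Nrp1 and Sema3f of Nrp2, while Sema3c can use both. In the ventral forebrain this system is known for steering migrating interneurons past the developing striatum.

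Some features of the libraries bear on what follows. Transcripts of St18 stood in neurons at 25.2 and 75.8 counts per 1000000 UMIs (CPM) in the libraries labelled null and at 44.3 and 59.1 CPM in the WT libraries. The library labelled null, replicate 2, thus went against its label by this measure, although 3′ reads outside a deleted stretch would check nothing, and directions between genotypes below rest on the labels. The study itself reports that St18 transcript remained in the null samples, at lower levels in neurons, while St18 protein was not detected in null embryos. A high transcript level alone therefore does not show that a label is wrong. Transcripts of Xist, made only from an inactive X chromosome, reached 596 and 1468 CPM in the libraries labelled null and 0.21 and 0.078 CPM in the WT libraries, so that the pools also differed in sex. Counts of the replicates labelled null differed from each other by 25.04 times the sampling variance in neurons, against 3.71 times for the WT replicates. Each pair of libraries shared 4 to 11 cell barcodes, where the product of their shares of all barcodes would give 2.29 to 4.40. Every pair was above its own value, and the cause was not tested.

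The cells were clustered with all 9 genes and 54 further genes of the pathway kept out, so the groups were not built on them. Levels were read in 29 groups with at least 20 cells in every library, 19 of neurons (N) and 10 of progenitors (P). Groups were named only from marker lists, as "-like", and the rest go by number and leading genes. Unlike St18, the shares of some neuron groups put null 2 with its label. N2 made up 10.96% and 21.1% of neurons in the libraries labelled null and 3.84% and 3.097% in the WT libraries. N3 made up 4.46% and 0.985% against 17% and 14.1%. Both were picked after the shares were seen, so they are no test of the label. Other groups did not separate, such as N1 with 13.4% and 2.67% against 12.1% and 8.98%. All 8 markers listed for MGE origin were found in the neurons, at a summed level of 2449 to 2774 CPM over the libraries. The list includes Dlx and Gad genes, which are not particular to the MGE. The list for the lateral ganglionic eminence (LGE) summed to 1500 to 2319 CPM in the same neurons. These sums therefore do not tell MGE from LGE neurons. Levels in groups are descriptions without a test, given as CPM of the group's own total. UMIs from the 3′ end give no basis for comparing levels between genes.

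Both neuropilins were high in a small number of neuron groups, of which N11 and N13 were high in both, N10, N12 and N8 in Nrp2 and N14 in Nrp1. For the neuropilins stretches of genome upstream of the RefSeq gene start and outside annotated exons are shown, since these genes varied more between neuron groups than the plexins did. They are RefSeq windows of build GRCm38.p6 on the plus strand, with each CpG in capitals.
Nrp1, chr8:128358823-128359072: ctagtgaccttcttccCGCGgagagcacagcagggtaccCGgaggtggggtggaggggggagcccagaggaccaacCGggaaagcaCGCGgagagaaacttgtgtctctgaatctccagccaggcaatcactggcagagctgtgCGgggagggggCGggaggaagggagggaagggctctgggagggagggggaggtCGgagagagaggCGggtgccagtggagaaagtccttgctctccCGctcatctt
Nrp2, chr1:62703067-62703284: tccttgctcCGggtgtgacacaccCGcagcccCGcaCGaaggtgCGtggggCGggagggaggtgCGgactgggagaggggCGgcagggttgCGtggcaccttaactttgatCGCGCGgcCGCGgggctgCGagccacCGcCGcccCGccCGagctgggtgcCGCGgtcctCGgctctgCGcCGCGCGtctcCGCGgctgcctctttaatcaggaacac
The Nrp2 stretch holds 28 CpGs in 218 bases, more than 95.6% of the 32851 promoter windows in the table cut to that length. The Nrp1 stretch holds 11 in 250 bases, more than 64.4% of windows, and lies between exons of a longer annotated transcript. Neither the letters CAAGTG, the core bound by Nkx2-1, nor TAATTA, a core of many homeodomain factors, occurred on either strand of these windows. The first is in 13.6% and the second in 5.29% of all windows of 300 bases, so little can be read from their absence. Windows were at hand for 6 of the 9 genes.

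Nrp2 (ENSMUSG00000025969, chromosome 1, 62703285 to 62818695, plus strand, GENCODE M21 on GRCm38) was highest in subcluster N10, led by Dab1, Gbx1, Cntn1 and Adarb2. There it stood at 447 and 549 CPM in the libraries labelled null and at 363 and 399 CPM in the WT libraries. The lowest of these exceeded the highest value of the next group, N13, and N10 came first in 4 of 4 libraries. Groups N13, N12, N8 and N11 followed with means of 233 ± 48.2, 201 ± 41.9, 165 ± 39.96 and 157 ± 9.35 CPM (SD, n = 4 libraries), and each overlapped its neighbour. Below them the order broke again, since the lowest value of N11 was 145 CPM and the highest of N16, the next group, was 72.5 CPM. No other neighbours in the order were separated. In the cortical interneuron precursor-like groups N1 and N5 (Maf, Mef2c, Erbb4), Nrp2 averaged 4.95 and 16.3 CPM, and it was lowest in the radial glia-like cluster P15 with 1.69 ± 0.368 CPM.

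The 5 groups high in Nrp2 differed in the usual landmarks of MGE neurons. Nkx2-1, which specifies the MGE and stays on in its basal forebrain neurons, averaged 753 CPM in N12 and 476 CPM in N8 but 88.1 CPM in N10 and 66.7 CPM in N13. Lhx6, the postmitotic MGE factor, was at 401 to 682 CPM in N8, N10, N11 and N12 and at 82.4 CPM in N13. Gbx1 and Adarb2 set N10 and N12 apart, with 160 and 170 CPM of Gbx1 and 750 and 885 CPM of Adarb2. N13 (Scg2, Nr2f2) also held 60 of the 61 cells of a cluster led by Neurod6, Neurod2 and Tbr1, genes of pallial excitatory neurons. Without them its 213 other cells had 210, 364, 181 and 211 CPM of Nrp2 (null 1, null 2, WT 1, WT 2), so that the top value then overlapped with N10, and 188, 212, 258 and 142 CPM of Nrp1. Nkx2-1, Lhx6, Gbx1 and Adarb2 were chosen for this description after the groups were seen.

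Nrp1 (ENSMUSG00000025810, chromosome 8, 128358604 to 128503363, plus strand) was highest in N11, led by Csmd1, Peg10, Gbx2 and Calb1. It reached 297 and 282 CPM there in the libraries labelled null and 194 and 253 CPM in the WT libraries. N11 came first in 3 of 4 libraries and overlapped with N14 and with N13, which was higher in WT 1 at 226 CPM. N19, the Nkx2-1 retaining ventral neuron-like group, followed N13 by mean, with 112 ± 26.8 CPM on 94 UMIs in all. The 3 LGE-lineage neuron-like groups, which carry striatal markers such as Ebf1, Isl1 and Foxp2 of the lateral ganglionic eminence, differed in Nrp1 among themselves. N14 had 182 ± 13.7 CPM, N9 had 74.6 ± 15.3 CPM and N17 had 33.1 CPM on average. Unlike Nrp2, Nrp1 was also read in progenitors, up to 59.7 ± 7.95 CPM in P12, which is led by replication genes.

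The lowest Nrp1 levels of all 29 groups were in neurons. The cortical interneuron precursor-like cells, N1 and N5 pooled, held 6.40 and 6.27 CPM in the libraries labelled null and 6.66 and 4.75 CPM in the WT libraries. Erythroid cells, which should lack the gene, held 0, 0, 2.22 and 7.27 CPM (null 1, null 2, WT 1, WT 2), on at most 3 UMIs in a library. The pooled N1 and N5 cells were above them in every library but WT 2, on 63 UMIs in all. How much of these low levels is background was not tested. The LGE-lineage neuron-like cells (N9, N14 and N17 together) held 83.8, 102, 81.2 and 94.7 CPM of Nrp1 in the same order of libraries, with no overlap between the 2 kinds of neuron.

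**Figure D1:**
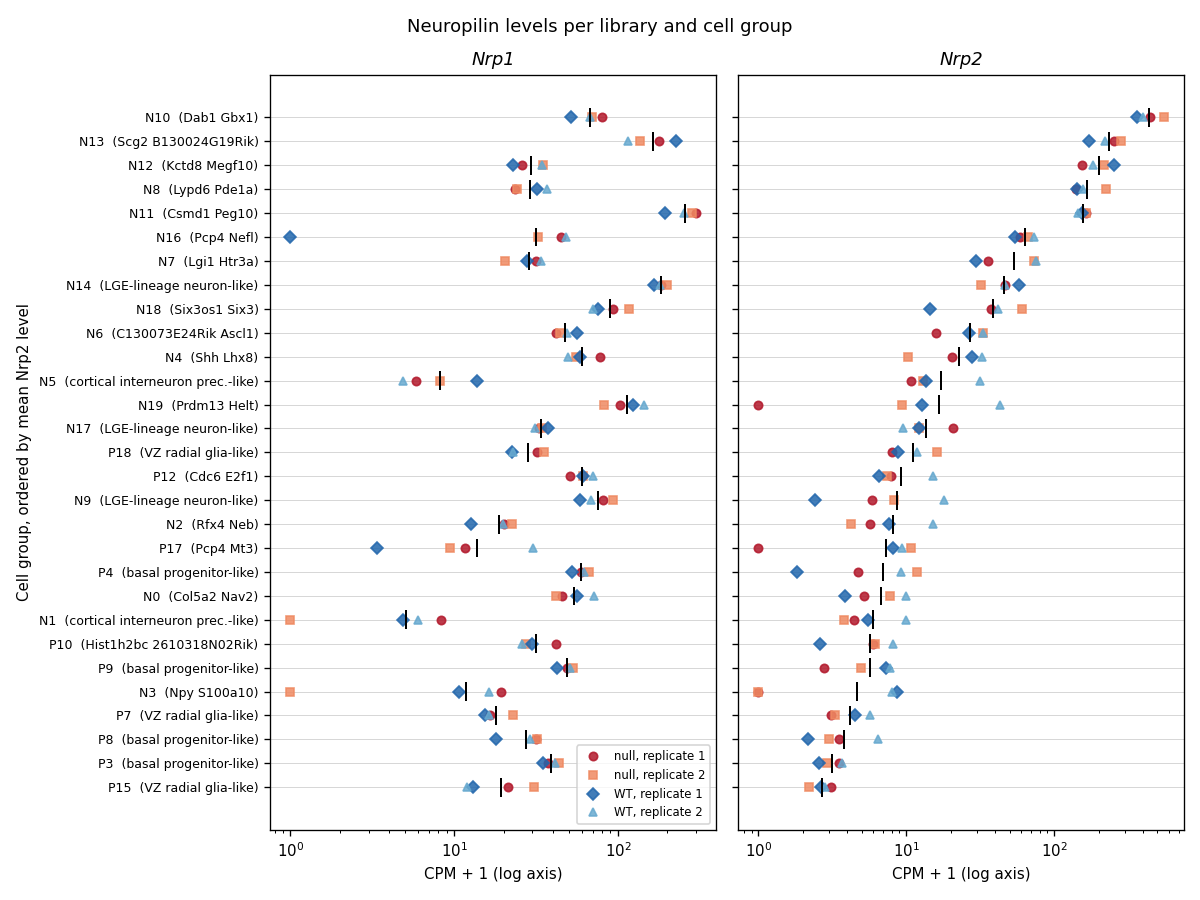
Levels of Nrp1 (left) and Nrp2 (right) in CPM + 1 on a log axis for each of the 4 libraries (symbols) and their mean (black tick) in 29 cell groups ordered by mean Nrp2. The top 5 groups stand apart from the rest in Nrp2, with every library at 139 CPM or more, while Nrp1 is high in N11, N13 and N14 and lowest in N1, N5 and N3.

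Single cells were next compared after each had been thinned to 3000 UMIs, which removes differences in depth. A UMI of Nrp2 was found in 62.8% of N10 cells (57.0% to 70.2% over the libraries), against 82.3% before thinning. A UMI of Nrp1 was found in 44.8% of N11 cells (36.2% to 49.6%), against 71.1% before thinning. In erythroid cells the thinned shares were 1.501% for Nrp1 and 2.53% for Nrp2, with a median depth of 11387 UMIs against 6681 in N10 and 6856 in N11. Erythroid Nrp2 came mostly from null 1, with 11 UMIs before thinning against 1, 0 and 2 in null 2, WT 1 and WT 2. Both neuropilins were found together in 13.6% of N11, 10.8% of N13 and 10.5% of N10 cells.

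Most neurons showed neither neuropilin at this depth. The share was 80.7% of all neurons and 89.2% of progenitors, against 96.0% of erythroid cells. In N1 it was 97.6% and in N3 (Npy, S100a10) 96.8%, which is no lower than in erythroid cells. A neuropilin together with any class A plexin was found in 31.8% of N10, 31.0% of N13, 29.2% of N11 and 29.03% of N14 cells. N12 and N10 led when a class 3 semaphorin was required in the same cell as well, with 7.46% and 6.39%. Free RNA was not taken out of these shares. Plxna2 stood at 127 to 186 CPM in droplets under 100 UMIs and at 2.22 to 16.5 CPM in erythroid cells.

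**Figure D2:**
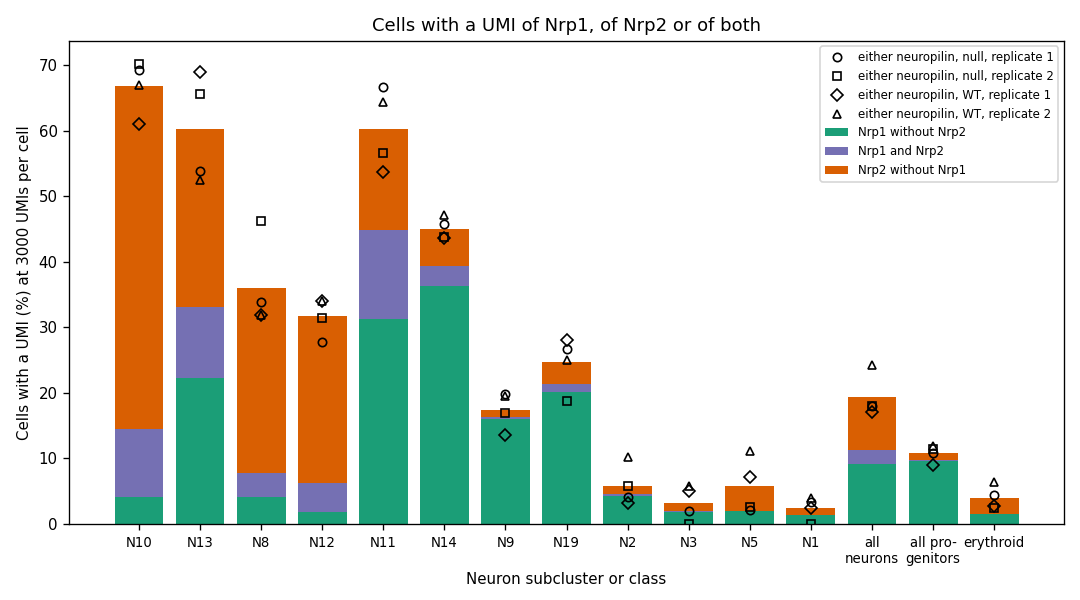
Share of cells (%) with a UMI of Nrp1 alone, of both neuropilins or of Nrp2 alone at 3000 UMIs per cell, as stacked means of 4 libraries, with the share for either neuropilin in each library as open symbols. N10 is mostly Nrp2 alone (52.3%), N14 mostly Nrp1 alone (36.3%), and N11 and N13 hold both kinds, whereas N1 and N3 sit at the level of erythroid cells.

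Sema3c (ENSMUSG00000028780, chromosome 5, 17574281 to 17730268, plus strand) was read mainly in a pair of neuron groups. N12, led by Kctd8 and Megf10, held 104 and 161 CPM in the libraries labelled null and 101 and 118 CPM in the WT libraries. N10 held 90.0 and 129 CPM and 76.5 and 87.3 CPM in the same order. These groups overlapped each other, and both lay above N17, the next, whose highest library had 43.0 CPM. Both are among the 5 groups high in Nrp2. At 3000 UMIs per cell, 26.4% of N12 and 20.2% of N10 cells had a Sema3c UMI, against 0.694% of erythroid cells.

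Sema3a (ENSMUSG00000028883, chromosome 5, 13125414 to 13602565, plus strand) was highest in the LGE-lineage neuron-like group N17, with 64.1 and 44.8 CPM in the libraries labelled null and 25.3 and 47.3 CPM in the WT libraries. N12 followed with 36.3 ± 5.51 CPM, then N14 with 31.4 ± 15.2 and N9 with 22.3 ± 9.47 CPM (SD, n = 4 libraries). All neighbours in the order overlapped. The 3 LGE-lineage neuron-like groups together held 42.7, 39.9, 15.1 and 28.99 CPM over the libraries (null 1, null 2, WT 1, WT 2), against 3.73, 4.18, 5.32 and 2.38 CPM in the cortical interneuron precursor-like groups.

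Sema3f (ENSMUSG00000034684, chromosome 9, 107681500 to 107710475, minus strand) had the 3 LGE-lineage neuron-like groups at the top by mean. All neighbours in the order overlapped, and 7 groups overlapped with N17, the first. N17 held 34.1 and 37.8 CPM in the libraries labelled null and 33.7 and 17.2 CPM in the WT libraries, N9 averaged 23.7 ± 5.98 CPM and N14 20.4 ± 1.58 CPM. N18 followed with 19.8 ± 2.89 CPM, and then, unlike in the order for Sema3a, the cortical interneuron precursor-like groups N5 and N1 with 17.6 ± 7.01 and 14.1 ± 8.27 CPM. In progenitors Sema3f did not exceed 2.37 CPM in any group mean. Levels of Sema3a and Sema3f were low throughout, so that a group mean rested on 63 to 114 UMIs of Sema3a in N17, N12, N14 and N9 and on 23 to 92 UMIs of Sema3f in N17, N9, N14, N18 and N5.

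**Figure D3:**
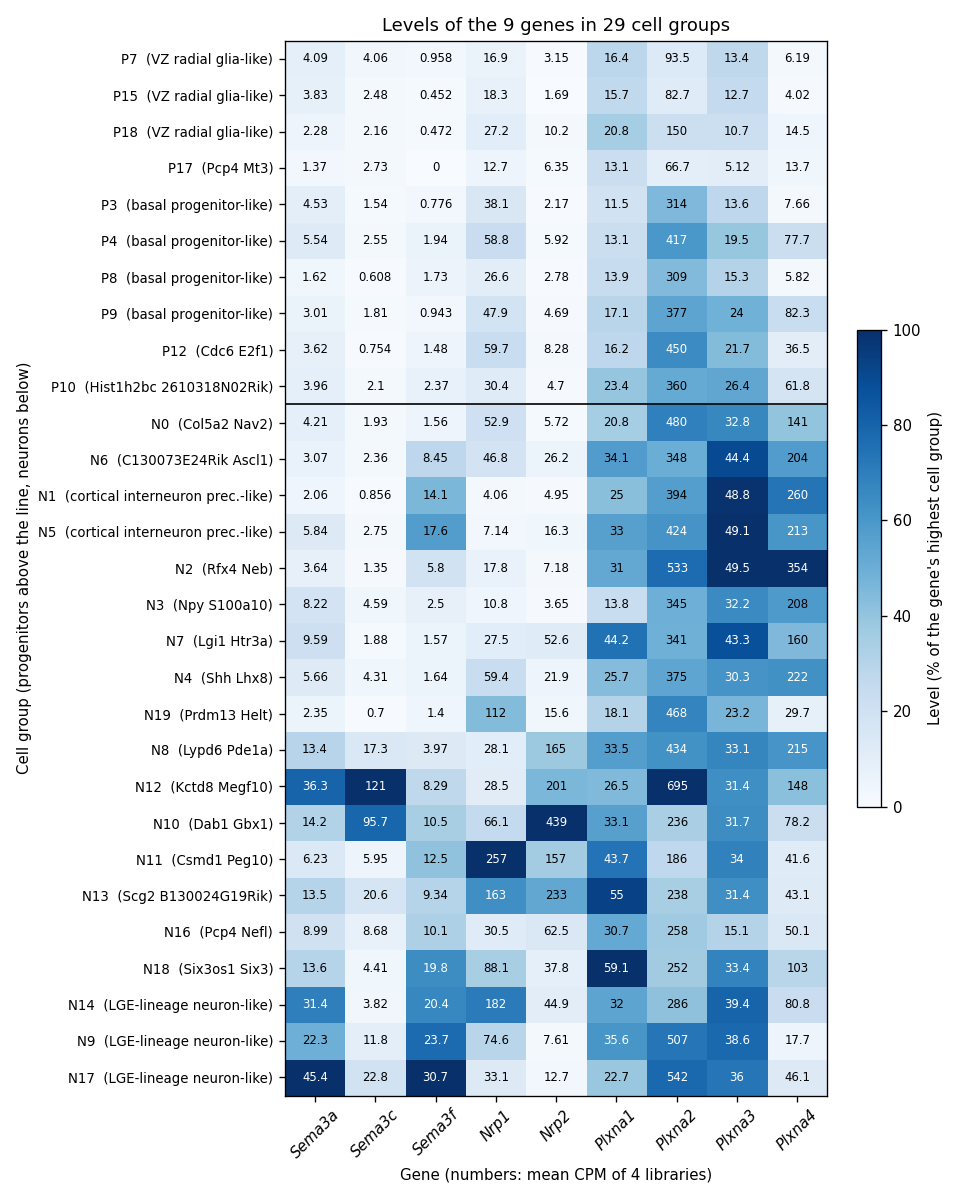
Mean level (CPM, printed in each field, 4 libraries) of the 9 genes in 10 progenitor clusters above the line and 19 neuron subclusters below it, with colour giving the level as a percentage of the gene's highest group. Sema3f is darkest in the LGE-lineage neuron-like groups N17, N9 and N14, Sema3a in N17 and N12, Sema3c in N12 and N10, Nrp2 in N10, Nrp1 in N11, and Plxna4 in N2 and N1, while Plxna1 and Plxna3 are spread over most neurons.

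The plexins were broader. Plxna2 (ENSMUSG00000026640, chromosome 1, 194618218 to 194816869, plus strand) was found in every group, from 40.4 to 108 CPM over the libraries in P17 to 695 ± 151 CPM in N12. Among progenitors it separated the ventricular radial glia-like clusters, the stem cells of the zone (P7, P15 and P18 together), at 107, 137, 67.7 and 77.7 CPM over the libraries, from the basal progenitor-like clusters, their dividing offspring (P3, P4, P8 and P9 together), at 381, 464, 276 and 297 CPM. The lowest basal value was above the highest radial glia value.

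Plxna4 (ENSMUSG00000029765, chromosome 6, 32144268 to 32588192, minus strand) had the widest ratio between its highest and lowest neuron group among the plexins. It was highest in 4 of 4 libraries in N2, led by Rfx4, Neb and Epha4, with 349 and 410 CPM in the libraries labelled null and 303 and 353 CPM in the WT libraries. The cortical interneuron precursor-like group N1 followed with 260 ± 50.7 CPM. The LGE-lineage neuron-like group N9 had 17.7 CPM and radial glia-like P15 had 4.02 ± 0.529 CPM. The groups highest in Plxna4 differed in Nrp1, which stood at 17.8 and 4.06 CPM in N2 and N1 but at 59.4 CPM in N4, the third group with 222 CPM of Plxna4. N11 and N14, highest in Nrp1, held 41.6 and 80.8 CPM of Plxna4.

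Plxna3 (ENSMUSG00000031398, chromosome X, 74329066 to 74344689, plus strand) had the narrowest ratio between its highest and lowest neuron group of the 9 genes, from 15.1 ± 5.09 CPM in N16 to 49.5 CPM in N2, which did not overlap. N2, N5 and N1 averaged 49.5 ± 3.47, 49.1 ± 4.74 and 48.8 ± 9.04 CPM and did not differ beyond their spread, and 17 of 19 neuron groups had a mean above every progenitor cluster. Plxna1 (ENSMUSG00000030084, chromosome 6, 89316314 to 89362620, minus strand) ranged from 11.5 ± 2.86 CPM in P3 to 59.1 ± 14.9 CPM in N18, which is led by Six3. Its top group overlapped with 13 others.

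The genes whose log2(CPM + 1) followed each of the 9 most closely over the 29 groups were read from 9166 genes with at least 20 CPM in some group, as a description in which all points share libraries and differ in depth. Nrp2 was closest to Fam155a, Dnm3 and Insyn2a (Pearson r = 0.89 for each), and Nrp1 to Thnsl1, Peg3 and Rnf121 (0.79, 0.78 and 0.77). Sema3c followed Galntl6, Kctd8 and BC030500 (0.92, 0.90 and 0.88), Sema3a followed Vstm2a, Lrrn3 and Acvr2a (0.88, 0.87 and 0.86), and Sema3f followed Klhl8, Apba1 and Amer3 (0.89 for each). Plxna4 was closest to Elmo1, Gad1, an enzyme that makes GABA, and Nrep (0.92, 0.90 and 0.90), and Plxna3 to Plppr3, Syt14 and Zfp57 (0.96, 0.95 and 0.95). Plxna2 followed Bcl11b, Prkca and Bcor (0.88, 0.86 and 0.86), and Plxna1 followed Eipr1, Tram1l1 and Grina (0.89, 0.89 and 0.88). Within the set itself, Sema3a and Sema3c gave r = 0.75, Plxna3 and Plxna4 0.74 and Nrp2 and Plxna1 0.73. Plxna2 and Plxna3 gave 0.70, as did Nrp2 and Sema3c, whereas Nrp1 and Plxna4 gave -0.11.

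Neurons and progenitors were then compared within libraries as whole classes. The neurons included LGE-lineage neuron-like groups and subclusters led by progenitor markers, so change within a lineage as cells leave the cycle was not tested. All 9 genes were higher in neurons, in 4 of 4 libraries each. Nrp2 rose most, from 3.29, 5.02, 2.83 and 6.42 CPM in progenitors to 51.2, 62.5, 50.6 and 89.1 CPM in neurons (null 1, null 2, WT 1, WT 2). On the log2 scale this was 3.80 ± 0.071 (SE; adjusted p = 1.2e-17, edgeR quasi-likelihood test over 14383 genes with library as a block and Benjamini-Hochberg adjustment). Neurons and progenitors did not overlap for it. Of all genes, 40.3% were higher and 39.5% lower in neurons by this test, so a call alone is common, and the sizes carry more.

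The 3 ligands rose by unequal amounts. Sema3f went from 0.895 to 1.43 CPM in progenitors to 7.68 to 12.04 CPM in neurons over the libraries (log2 2.84 ± 0.145, adjusted p = 5.9e-12, edgeR), and Sema3c from 1.64 to 2.76 CPM to 10.6 to 20.03 CPM (2.65 ± 0.113, adjusted p = 4.7e-13, edgeR). Sema3a stood at 2.71 to 5.21 CPM in progenitors and at 6.60 to 12.3 CPM in neurons (1.34 ± 0.106, adjusted p = 2.7e-09, edgeR). Mean progenitor levels of 7 of the 9 genes, all but Nrp1 and Plxna2, were below those of background droplets under 100 UMIs. The droplets held 7.08, 10.7, 4.71 and 31.4 CPM of Sema3a, Sema3c, Sema3f and Nrp2, and 19.996, 22.4 and 52.8 CPM of Plxna1, Plxna3 and Plxna4. In neurons 0 of the 9 means were below the droplets, but Sema3a in WT neurons was level with them, at 6.60 and 8.88 CPM against 6.66 and 8.92 CPM, and Sema3c was below them in WT 1, at 11.6 against 13.9 CPM. The part of free RNA in these levels was not tested.

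Among the plexins the order was Plxna4, Plxna3, Plxna1 and Plxna2. Plxna4 held 30.9 and 48.2 CPM in progenitors labelled null and 24.6 ± 0.803 CPM (SD, n = 2) in WT progenitors, and 188, 223, 139 and 129 CPM in neurons (log2 2.37 ± 0.051, adjusted p = 5.4e-17, edgeR). The log2 differences of Plxna3 and Plxna1 were 1.13 ± 0.057 and 0.91 ± 0.061. Plxna2 and Nrp1 rose least, by 0.43 ± 0.039 and 0.48 ± 0.046 on the log2 scale, and the same edgeR fit gave adjusted p = 1.8e-08 and 3.0e-08. Plxna2 was the only one of the 9 whose ranges over libraries overlapped between the classes, at 221 to 375 CPM in progenitors and 315 to 531 CPM in neurons, although it was higher in the neurons of each library.

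**Figure D4:**
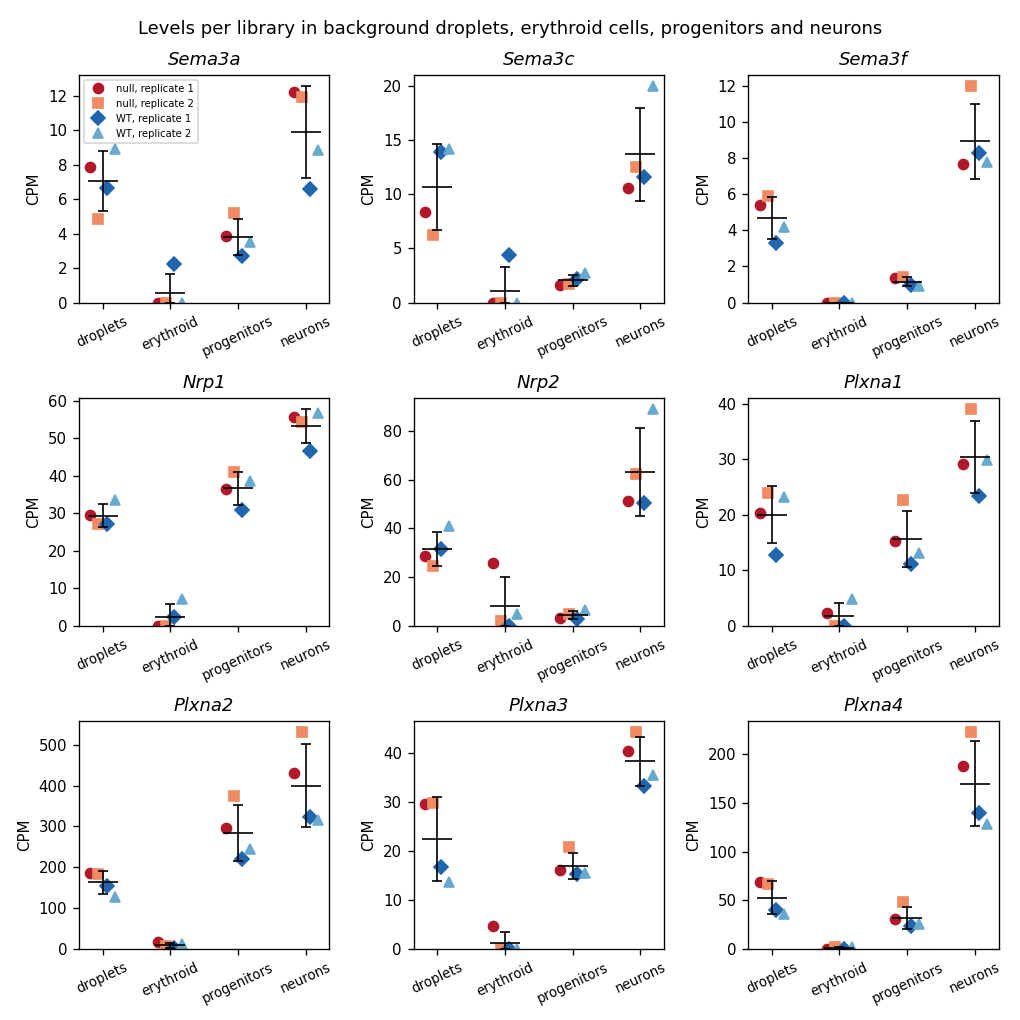
Level (CPM) of each of the 9 genes in background droplets under 100 UMIs, erythroid cells, progenitors and neurons, with 1 symbol per library and the mean ± SD of 4 libraries (lower bars end at 0). Every gene is higher in neurons than in progenitors of the same library, with Nrp2 and Plxna4 showing the widest steps among receptors.

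Of the 54 other genes of the pathway, 49 were tested in the same comparison, and 25 were higher and 16 lower in neurons. Their median log2 difference was 0.36, against 1.34 for the 9 genes and 0.017 over all genes. Of the 6 listed co-receptors 4 were higher in neurons, 1 was lower and 1 did not pass. The 4 were Cntn2 at 3.45 ± 0.129, L1cam, a known membrane partner of Nrp1, at 3.16 ± 0.069, Chl1 at 3.11 ± 0.060 and Nrcam at 1.62 ± 0.045. Transmembrane semaphorins went both ways. Sema6b, Sema4f, Sema4a and Sema6c were higher by 3.17 ± 0.155, 2.36 ± 0.201, 1.55 ± 0.116 and 1.53 ± 0.063, and Sema5a, Sema5b and Sema6a lower, at -1.57 ± 0.113, -1.02 ± 0.052 and -0.90 ± 0.087.

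Genes of several other roles fell in neurons. The small GTPase gene Rras, on which plexins act, was at -2.09 ± 0.142 and Mical2, an oxidase of actin, at -1.64 ± 0.196. The remaining secreted class 3 ligand to pass, Sema3b, was at -1.53 ± 0.447. Vegfb and the VEGF receptor Flt1 were at -0.98 ± 0.045 and -0.88 ± 0.361 on the log2 scale. Sema3b and Flt1 failed the low-count filter when genotypes were compared in neurons alone, so their differences rest on low counts. Flt1 is also on the list of endothelial markers. Of the 19 signal transducers tested, 13 were higher and 6 lower.

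The labelled genotypes were compared last, which asks whether loss of St18 goes with other guidance receptors or ligands. No member passed the threshold in neurons. Of all genes, 11 of 13584 did (0.081%, edgeR quasi-likelihood test, Benjamini-Hochberg adjusted p under 0.05), and DESeq2 called 2 of the 9, Plxna2 and Plxna4, and 2.34% of all genes. Without adjustment, 4 of the 9 had p under 0.05, against 17.5% of all genes.

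Those 4 were Plxna2, Plxna4, Sema3a and Sema3c. Plxna2 stood at 430 and 531 CPM in neurons labelled null and at 323 and 315 CPM in WT neurons, a log2 difference of 0.44 ± 0.126 (SE; adjusted p = 0.155, edgeR). Plxna4 stood at 188 and 223 CPM against 139 and 129 CPM (0.46 ± 0.121, adjusted p = 0.128, edgeR). The libraries labelled null were above both WT libraries for each. N2, the group highest in Plxna4, made up more of the neurons labelled null, as given above. With equal numbers of cells of each subcluster in every library the differences were 0.27 for Plxna4 and 0.32 for Plxna2 (adjusted p = 0.306 and 0.269, edgeR). What group shares add to the differences was not tested. Without null 2, WT 1 or WT 2 neither gene passed, at 0.33 to 0.47 for Plxna2 and 0.39 to 0.54 for Plxna4 (adjusted p = 0.0698 to 0.772, edgeR). Leaving out the replicate labelled null 1 gave 0.55 for both genes, with adjusted p = 0.00434 for Plxna2 and 0.00605 for Plxna4 by edgeR, on a fit in which the lone sample is assumed to vary like the WT libraries. That fit called 17.6% of all genes, near the share of the members, and its lone library is the one whose St18 level went against its label.

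Both libraries labelled null exceeded both WT libraries for 4 of the 9 genes in neurons (Plxna2, Plxna3, Plxna4 and Sema3a) and lay below for 0. Of all genes, 42.9% were above and 13.4% below in that sense. CPM uses library totals alone, on which the median gene differed by 0.15 (log2) between genotypes in neurons and by 0.19 in progenitors. The edgeR values take that shift out, and its part in the uneven shares was not tested. Plxna3 is X-linked, at 40.4 and 44.2 against 33.1 and 35.4 CPM, and its log2 difference of 0.15 ± 0.119 (adjusted p = 0.52, edgeR) stood beside the Xist levels given above. In male cells alone it was 0.17.

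Sema3a held 12.3 and 11.9 CPM in neurons labelled null and 6.60 and 8.88 CPM in WT neurons (0.50 ± 0.178, adjusted p = 0.207, edgeR). All 8 LGE markers were detected, at a summed level of 2007 and 2319 CPM against 1833 and 1500 CPM, values that carry the shift named above. The LGE-lineage neuron-like groups made up 9.55% and 9.76% of neurons labelled null and 8.79% and 6.91% of WT neurons, and their own Sema3a level, given above, was also higher in both libraries labelled null. Without the LGE-, CGE- and pallial-like groups, an alternative chosen after the data were seen, the difference was 0.20 (adjusted p = 0.59, edgeR). How far the share of these groups entered the difference was not tested.

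Nrp2 and Sema3c had fitted differences below 0. Nrp2 stood at 51.2 and 62.5 CPM in neurons labelled null and at 50.6 and 89.1 CPM in WT neurons (-0.45 ± 0.214, adjusted p = 0.311, edgeR), and Sema3c at 10.6 and 12.5 against 11.6 and 20.03 CPM (-0.60 ± 0.220, adjusted p = 0.215, edgeR). WT replicate 2 was the highest library for both. Its neurons also held the largest share of the groups rich in both genes, since N10 and N12 made up 11.5% of its neurons, against 5.21%, 5.35% and 6.25% in null 1, null 2 and WT 1. With equal numbers of cells of each subcluster in every library, the differences were -0.09 for Nrp2 and -0.12 for Sema3c (adjusted p = 0.789 and 0.801, edgeR). The part of these shares in the differences was not tested. Without WT replicate 1, a fit in which the lone WT library is assumed to vary like those labelled null, they were -0.79 and -0.93 (adjusted p = 0.0452 and 0.00768, edgeR), where 0.936% of all genes were called, and without WT replicate 2 they were -0.0053 and -0.19 (adjusted p = 0.996 and 0.912, edgeR). Nrp1 and Plxna1 differed by -0.06 ± 0.131 and 0.20 ± 0.158, and Sema3f by 0.13 ± 0.207.

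In progenitors 0 of the 9 passed as well, where 2 of 13644 genes did (0.0147%, edgeR), DESeq2 called 0 and 2.42% of all genes, and 4 of the 9 were under an unadjusted p of 0.05, against 17.2% of all genes. These were Plxna1 at 0.45 ± 0.171, Plxna2 at 0.32 ± 0.123, Plxna4 at 0.48 ± 0.167 and Sema3c at -0.73 ± 0.255. Of the 9, 6 were above in both libraries labelled null (48.3% of all genes) and 1, Sema3c, below in both (11.1% of all genes). Leaving out replicate 1 labelled null gave 3 calls, Plxna1, Plxna2 and Plxna4, where 32.3% of all genes were called, and leaving out replicate 2 gave 1, Plxna2, where 13.6% were, so these counts were near the background. Of the 54 further pathway genes, 46 were tested in neurons and 49 in progenitors, and 0 passed in either, with 4 and 9 at an unadjusted p under 0.05.

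Whether the genotype difference itself differed between neurons and progenitors was tested as an interaction, which 148 of 14383 genes passed (1.03%, edgeR) and 0 of the 9. DESeq2 also called 0, against 0.396% of all genes, and 1 of the 9, Plxna2, had an unadjusted p under 0.05 with a difference of 0.15 ± 0.063 on the log2 scale, against 8.72% of all genes.

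The genotypes were also compared within neuron subclusters, since their shares differed between libraries. N0, led by Col5a2, Nav2 and Prox1, was the only one with 100 cells in every library. It is among the subclusters led by progenitor markers, since its leading genes include Vim and no listed neuron marker. In N0, 0 members passed by edgeR or by DESeq2, where 0.0897% of 8921 genes did by edgeR and 0.841% by DESeq2. An unadjusted p under 0.05 by edgeR was found for 2 members, against 10.4% of all genes. These were Nrp1 at -0.65 ± 0.206 and Plxna2 at 0.37 ± 0.140. With at least 40 cells per library, a setting chosen after the data were seen, 13 subclusters were read. Each of the 9 genes could be tested in 3 to 13 of them. Of these gene by subcluster tests 2 passed, both for Plxna4, and 0.378% of all 104990 such tests were called. In N5, cortical interneuron precursor-like, Plxna4 held 266 and 317 CPM in the libraries labelled null and 162 and 108 CPM in the WT libraries (log2 0.97 ± 0.191, adjusted p = 0.00207, edgeR). In N8, led by Lypd6 and Pde1a, it held 245 and 325 against 140 and 151 CPM (0.86 ± 0.172, adjusted p = 0.0377, edgeR). Only 45 cells of WT replicate 2 stood behind its value in N5.

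Across the 13 subclusters the fitted difference of Plxna4 ran from 0.03 in N0 to 1.01 in N11, and that of Plxna2 from 0.05 in N14 to 0.59 in N11, all above 0. The subclusters come from the same 4 libraries and are not independent. Sema3a could be tested in 5 of them and was above 0 in each (0.30 to 1.201). The low-count filter admits a gene on 2 high libraries alone. In N7, N8 and N14 these were the libraries labelled null, at 15.2 and 9.45, 16.5 and 21.6, and 44.1 and 44.7 CPM. The WT libraries there held 6.34 and 7.35, 7.37 and 8.08, and 15.6 and 21.3 CPM. The sign in these groups was thus largely fixed by the filter and is no support. Nrp2 was above 0 in 3 of 9 and Nrp1 in 6 of 11.

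**Figure D5:**
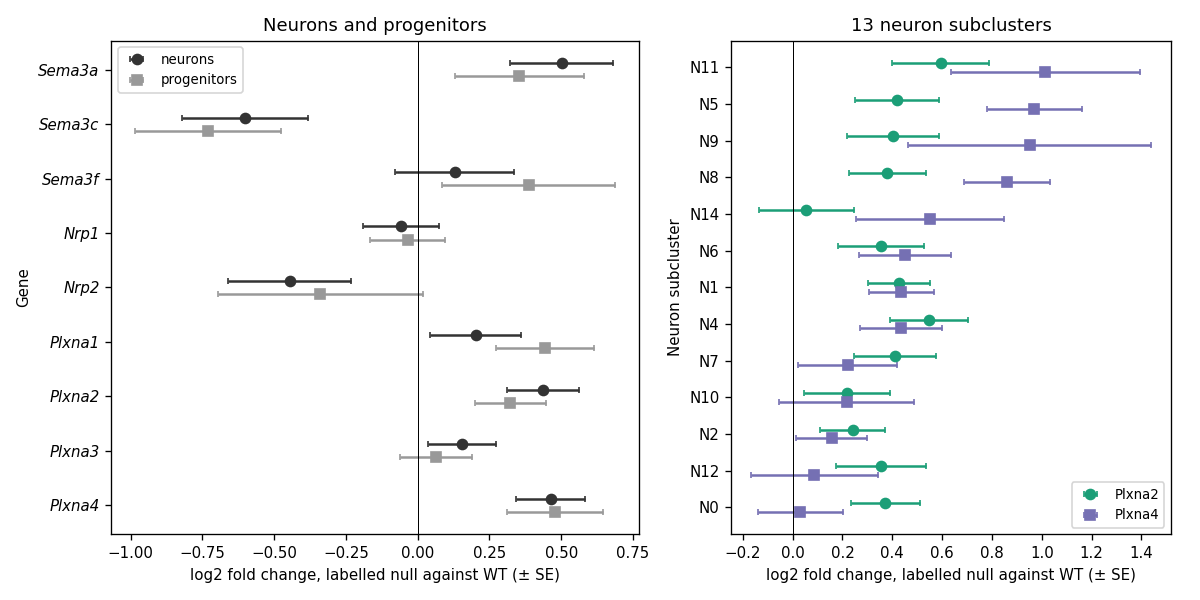
Left, log2 fold change (± SE) between the libraries labelled null and WT for the 9 genes in neurons (black circles) and progenitors (grey squares). Right, the same for Plxna2 and Plxna4 in 13 neuron subclusters. Plxna2 and Plxna4 lie to the right of 0 in each, Nrp1 lies near 0, and Nrp2 and Sema3c lie to the left.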

How the data were processed

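Per the labels, MGE of e14.5 embryos was pooled by genotype and processed with 10x Genomics chemistry. The authors quantified reads with Cell Ranger (5.0.1 in the submitters' notes, 4 in the matrix headers) against GRCm38 and deposited raw UMI counts per gene and barcode, unfiltered for cells and not normalized. Libraries held 70991150 to 92984713 UMIs in all and precision is limited by 2 pools per genotype. The study calls the pools biological replicates and the WT embryos littermates of the null. It does not say that the pools of a genotype came from separate litters, so p-values measure only the spread between these libraries. Gene identifiers were matched to GENCODE M21 (99.6% found).

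Cells needed 3000 UMIs, 200 genes and at most 10% mitochondrial UMIs. The 120 to 352 cells per library (3.09% to 5.31%) with the highest Scrublet scores (scanpy 1.11.5) were removed, in proportion to the cells of the library, because Scrublet's own threshold called at most 0.044%. Seurat 5.3.0 clustering followed the study (2000 variable genes, 49 components, resolution 1.4, difference of S and G2M scores regressed out), without the 63 pathway genes, and only neurons, not progenitors as in the study, were clustered again alone. A "-like" name needed at least 3 listed markers found in 25% of cells at a log2 fold of 1. Differences in rebuilt cluster names from the study's may follow. For each library, UMI counts of a class were added up and tested with edgeR 4.0.16 (TMM, filterByExpr, quasi-likelihood, two-sided) or DESeq2 1.42.0 as an alternative, in R 4.3.3. On simulated counts for neurons, edgeR recovered 75% of 2-fold and 95% of 4-fold changes among 13584 genes, with 5.56% of calls false. For progenitors it recovered 82% and 94% among 13644 genes, with 12.9% of calls false. These draws gave both genotypes the same spread for a gene, unlike the libraries here. They held no change under 2-fold, so they say little on the smaller differences of the members between genotypes. Members, pathway list and markers were chosen with earlier results of these data known. All 9 members are named, and of the other pathway genes up to 8 per direction with the largest changes past the threshold, and the 3 genes most like each member. The replicate numbers are in the order of the samples.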

Additional observations from a re-analysis of the deposited data

How the results depend on the processing

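No paired analysis was possible because the labels carry no replicate numbers. Neurons against progenitors kept 9 of 9 members past the threshold in every alternative run. The count of genes differing between genotypes depended strongly on the setting, and causes were not tested. In neurons it was 308 with library totals alone, 311 without the low-count filter, 318 with DESeq2, 1 in male cells, 5 with equal cells per cluster, 53 without subclusters led by progenitor markers, 83 without LGE, CGE and pallial clusters (added after seeing the data), and 65 to 2405 when 1 library was left out, highest without null replicate 1. Members past the threshold were then 2 with library totals alone, where 2.27% of all genes were called. They were 2 with DESeq2, where 2.34% of all genes were. In progenitors the gene count was 150 with library totals alone, 886 without the filter, 330 with DESeq2, 0 in male cells, 4 from 5000 UMIs, 7 with equal cells per cluster and 25 to 4467 with 1 library left out, and members past it were 2 without the filter and 0 to 3 with 1 library left out. The interaction count was 93 with RLE size factors, 57 with DESeq2, 30 in male cells and 54 to 210 with 1 library left out. Member calls in subclusters were 2 with at least 40 cells, where 0.378% of all tests were called. They also moved with 1 library left out, where the share of all genes called was not computed, so those counts are not read. Thinning moved Plxna3 in N2 to 53.2 CPM. Directions turned for differences that passed no threshold. In neurons, Nrp1 was at 0.089 with library totals alone, 0.0052 with equal cells per cluster, 0.035 without progenitor-led subclusters and -0.18 to 0.068 with 1 library left out, and Sema3f at -0.16 to 0.40. In progenitors, Nrp1 was at 0.16 with library totals alone and -0.19 to 0.13 with 1 library left out, Nrp2 at -0.84 to 0.33 and Plxna3 at -0.054 to 0.18. For the interaction, Nrp1 was at -0.020 with RLE, -0.022 with DESeq2, -0.066 with library totals alone, -0.092 without the filter and -0.045 from 5000 UMIs. Plxna4 was at -0.0018 with RLE, -0.047 with library totals alone, -0.075 without the filter and -0.045 with 2 times as many doublets left out, where Nrp2 was at 0.14. In male cells Sema3a was at -0.13 and Sema3c at -0.077. With 1 library left out the interaction ran from -0.15 to 0.039 for Nrp1, -0.29 to 0.082 for Nrp2, -0.047 to 0.18 for Plxna3, -0.22 to 0.16 for Plxna4, -0.095 to 0.35 for Sema3a and -0.014 to 0.41 for Sema3c.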
